A study of Mus musculus with 41 samples.

Results

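Epithelial mammary tumors that arose under a high-fat diet restricted to adulthood (LFD-HFD) were compared with epithelial tumors that arose under a high-fat diet given throughout life (HFD). The 14 tumors are those whose morphology label is "p53 variable", read here as epithelial, and whose diet label is the switch from LFD to HFD (6 tumors) or HFD (8 tumors), out of 41 tumors in the series. All of them grew from Trp53-null BALB/c mammary duct fragments that had been transplanted into the cleared fat pads of wild-type BALB/c females, so the loss of Trp53 and the high-fat diet of the adult mouse are shared by both groups, and the diet of puberty, low-fat against high-fat, is what differs. The duct fragments came from a small number of donor mice and the host kept its own fat pad, stroma and immune system. Of the LFD-HFD tumors, 3 were labelled early and 3 late in occurrence, and of the HFD tumors 4 were early and 4 late. The mouse numbers in the 14 names all differ. Each tumor was hybridized once on a 2-color Agilent whole mouse genome array, with tumor RNA in the Cy5 channel and a reference RNA pooled from 11 mouse cell lines in the Cy3 channel according to the sample labels. The study's methods place the reference in Cy5 instead. Read by the labels, the epithelial marker genes Krt8, Krt18 and Epcam were higher in tumor than in reference on all 14 arrays. Other epithelial markers were not. The log2 ratio of tumor to reference of Krt5 ran from -2.86 to -0.27 in LFD-HFD and from -2.88 to 1.34 in HFD. That of Krt14 ran from -1.38 to 1.24 in LFD-HFD, and the lowest for Cdh1 was -0.04. The markers thus do not settle the dye by themselves, and every direction below follows the labels.

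Puberty is the time at which the mammary ducts elongate and branch through the fat pad under the control of estrogen, growth hormone and IGF1. Trp53 normally halts or kills cells with damaged DNA, and mammary epithelium without it forms tumors of varied histology that carry many gains and losses of chromosome segments. An array of a whole tumor reads its epithelium together with the adipocytes, fibroblasts, vessels and immune cells around it.

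Slide is largely tied to diet. The 14 tumors lay on 4 slides, and only 1 slide held both regimens, with 2 early LFD-HFD and 2 late HFD tumors. The other 4 LFD-HFD tumors shared 1 slide, and the other 6 HFD tumors lay on 2 slides, one of which carried only the early HFD tumors 42L4B and 60L and was scanned on another day from the rest. On the mixed slide regimen and onset cannot be told apart. Between 65.5% and 88.8% of probes were well above background in the tumor channel of the LFD-HFD arrays (median 74.8%) and between 63.2% and 76.4% in that of the HFD arrays (median 67.4%). In the reference channel the share was lowest on the arrays of HFD tumors 42L4B (51.9%) and 60L (46.0%). The median there was 74.8% over the HFD and 79.0% over the LFD-HFD arrays. The SD of the log2 ratios was 2.01 for 42L4B and 2.03 for 60L, against 1.36 to 1.60 on the LFD-HFD arrays. A high ratio on those HFD arrays can thus reflect a weak reference signal, which was not tested. The share of outlier spots was at most 3.50% on 13 arrays and 22.02% on the array of HFD tumor 60L. All 6 epithelial marker genes (Krt8, Krt18, Krt5, Krt14, Epcam, Cdh1) were well above background on all 14 arrays and none passed the test between the regimens, with log2 differences from -0.86 (Krt14, SE 0.75) to 0.25 (Krt18, SE 0.42).

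Among 21366 genes tested, 17 were higher and 27 were lower in LFD-HFD than in HFD tumors (limma over all 29 epithelial tumors, Benjamini-Hochberg adjusted p under 0.10), or 0.206% of the genes. The genes lower in LFD-HFD made up 0.126% and the higher ones 0.0796%. Here a value is the log2 ratio of tumor to reference signal, and a difference is the LFD-HFD mean minus the HFD mean. The 14 tumors compared came from different mice, and the p-values measure the spread between tumors over all 29. Among the tumors that lent only spread, MSU_11L and MSU_11R (LFD) share a mouse number, as do MSU_117L and MSU_117R (HFD-LFD). They were fitted as independent. With the 14 tumors alone 1 gene was higher and 14 were lower. In a whole tumor, fewer cells of a type and less RNA per cell cannot be told apart. The median difference over all genes was 0.01, and 2216 genes, or 10.4%, had an unadjusted p under 0.05. The split into higher and lower calls moved with the treatment of background and dye. It was 13 against 27 when each array was only centred on its median, and went from 17 against 27 to 23 against 83 after background correction by normexp and loess, 14 against 51 with loess alone, 8 against 29 in the authors' matrix, and 481 against 94 when the tumor channel was used without the reference, where the median of all genes moved to 0.13. With slide entered in limma as a block, random (intraslide correlation 0.11) or fixed, 0 genes passed, and 1691 and 917 genes respectively had an unadjusted p under 0.05. Under the random block the adjusted p of Usf1, Dedd, Hnrnpl, Hyou1 and Cercam was 0.103. No gene passed without LFD-HFD tumor 71L, without 82L or without 92R, and 7 passed without 80L.

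The genes lower in LFD-HFD tumors did not belong to 1 pathway. They included a transcription factor, a cell death regulator, genes of RNA handling, chromatin genes and a pair of protein folding genes of the endoplasmic reticulum. Of the 27 genes, 22 had a symbol in the gene table and 24 were well above background on at least 4 of 6 LFD-HFD and 5 of 8 HFD arrays. Their differences ran from -0.77 to -3.03 (median -1.66), which is a lower ratio in LFD-HFD, and for 12 of the 27 the values of the groups did not overlap at all. Over all genes tested, 0.253% were lower in LFD-HFD with no overlap.

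Usf1, which encodes an E-box binding transcription factor of lipid and glucose metabolism genes, had ratios from -2.51 to -0.22 (median -1.57) in the 6 LFD-HFD tumors and from 0.30 to 4.07 (median 0.88) in the 8 HFD tumors. The groups did not overlap, and the difference was -2.78 (SE 0.53, limma adjusted p = 0.040). Dedd, which encodes a DNA-binding protein with a death effector domain, ran from -1.73 to 0.64 (median -1.44) in LFD-HFD and from 0.51 to 2.77 (median 1.16) in HFD, a difference of -2.36 (SE 0.43, limma adjusted p = 0.032). A single LFD-HFD tumor, MSU_101L4A, reached the HFD range of Dedd. The probes of Dedd (chr1:173271146-173271205) and Usf1 (chr1:173348193-173348252, mouse build mm9) lie 77.0 kb apart. The 5 genes tested between them, Nit1, Pfdn2, Klhdc9, Nectin4 and Arhgap30, had differences from -0.70 to 0.18, none of which passed.

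Pdia4, a protein disulfide isomerase of the endoplasmic reticulum, ran from -2.87 to 1.39 (median -1.32) in LFD-HFD and from 0.98 to 4.07 (median 1.62) in HFD. Its difference was -2.76 (SE 0.62, limma adjusted p = 0.079). Hyou1, a chaperone of the same compartment, had values from -0.39 to 1.105 (median 0.38) in LFD-HFD and from 1.30 to 2.84 (median 1.79) in HFD, with no overlap and a difference of -1.54 (SE 0.27, limma adjusted p = 0.032). After these calls had been seen, 20 genes of protein folding and stress in the endoplasmic reticulum were read. Pdia4 and Hyou1 were the 2 that passed, and the median of the 20 was -0.14. Sdf2l1 had a difference of -1.57 that did not pass, while Hspa5, the main chaperone of this response, had a difference of -0.02 and Hsp90b1 of -0.21.

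Hnrnpl, Dhx37 and Ppwd1 are genes of RNA handling. Hnrnpl, a splicing regulator that binds CA-rich RNA, ran from -1.82 to -0.38 (median -1.57) in LFD-HFD and from -0.03 to 0.95 (median 0.29) in HFD, a difference of -1.77 (SE 0.30, limma adjusted p = 0.032) with no overlap. Dhx37, a helicase of ribosome assembly, ran from -0.81 to 0.99 (median 0.13) in LFD-HFD and from 1.23 to 2.74 (median 1.84) in HFD, a difference of -1.68 with no overlap. Ppwd1, a spliceosomal prolyl isomerase, had medians of 0.26 and 1.37, and its second probe gave -1.38 against -1.55 for the brighter one. The first 2 of these genes were lower in 6 of 6 LFD-HFD tumors than in any HFD tumor, whereas Ppwd1 overlapped.

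Chromatin and chromosome genes were also among them. Brd1, a scaffold of histone acetyltransferase complexes, ran from -1.92 to 0.64 (median -1.11) in LFD-HFD and from 0.48 to 3.28 (median 0.60) in HFD, with a difference of -1.999 (SE 0.40, limma adjusted p = 0.048). A second Brd1 probe, equally well above background on all 14 arrays, gave a difference of 0.18 (SE 0.31), so the result is that of 1 of 2 probes. Mau2, a subunit of the cohesin loader, had medians of -1.07 and 0.62 and a difference of -1.68 (SE 0.34, limma adjusted p = 0.047). Med18, a Mediator subunit named after its values had been seen, had a difference of -1.09.

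In transport and metabolism, Ap2a2, the alpha subunit of the clathrin adaptor of endocytosis, ran from -2.60 to -1.07 (median -2.15) in LFD-HFD and from -0.96 to -0.14 (median -0.40) in HFD without overlap, a difference of -1.63 (SE 0.34, limma adjusted p = 0.051). Dync1li1, a light intermediate chain of cytoplasmic dynein, had medians of -1.10 and 0.40. Sephs2, the selenophosphate synthetase needed to make selenocysteine, ran from -4.74 to -1.59 (median -3.60) in LFD-HFD and from -1.75 to -0.12 (median -1.23) in HFD, a difference of -2.33. Cercam, a cell surface glycoprotein gene, had a difference of -1.66 (SE 0.29, limma adjusted p = 0.032) and Btg1c, named 4930430D24Rik on the array, one of -2.44, both without overlap. Gatd1, likewise named after its values had been seen, differed by -1.39, with -1.71 at a second probe, and its probe lies 224 kb from that of Ap2a2. The 11 genes tested between them had differences from -0.62 to 0.56 and none passed.

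A pair of signaling genes had the largest differences of all genes lower in LFD-HFD but were dim. They fall outside the brightness rule for naming genes and were picked after their values had been seen. Cdk6, the kinase partner of D-type cyclins at the start of the cell cycle, had a difference of -3.03 (SE 0.66, limma adjusted p = 0.071), with ratios from -2.34 to 0.86 in LFD-HFD and from 0.60 to 3.31 in HFD, and was well above background on 2 of 6 LFD-HFD and 7 of 8 HFD arrays. Lgr4, an R-spondin receptor that strengthens Wnt signaling, had a difference of -2.90 (SE 0.67, limma adjusted p = 0.091) and was well above background on 3 of 6 and 8 of 8 arrays.

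**Figure D1:**
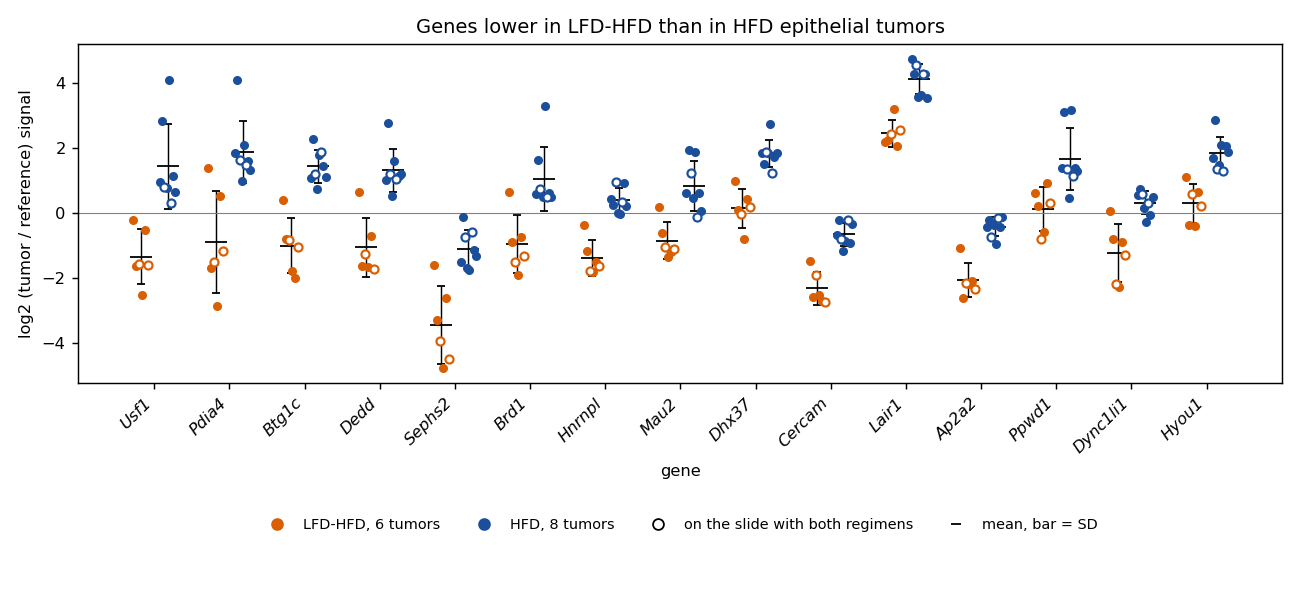
Log2 ratio of tumor to reference signal (vertical axis) of 15 named genes lower in LFD-HFD than in HFD epithelial tumors, 1 point per tumor, with the mean and SD of each group as black bars and open points for the 4 tumors on the slide that held both regimens. Most LFD-HFD points lie under the HFD points of the same gene, the uppermost LFD-HFD point of Dedd (0.64) reaches the HFD range, and the highest HFD points of Usf1 and Pdia4 are both at 4.07.

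Lair1 and 4 other genes had to be read by channel. Lair1, an inhibitory receptor of immune cells that binds collagen, had ratios from 2.05 to 3.19 in LFD-HFD and from 3.53 to 4.71 in HFD, a difference of -1.66 (SE 0.32, limma adjusted p = 0.040) with no overlap. Its tumor signal alone differed by -0.01 on the log2 scale, and its reference signal was higher by 1.65 on the LFD-HFD arrays, although the reference RNA was meant to be the same on all arrays. BB557941, TC1709970, Med18 and Vmn2r3 likewise differed more in the reference than in the tumor channel and are named for that reason. For the other 22 genes lower in LFD-HFD and for all 17 higher genes the tumor channel carried the larger part. That part was not always most of the difference. Btg1c differed by -1.25 in the tumor and by 1.19 in the reference channel, and Lgr4 by -1.88 and 1.03. The median difference of the 27 genes was -1.25 in the tumor channel and 0.47 in the reference channel.

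**Figure D2:**
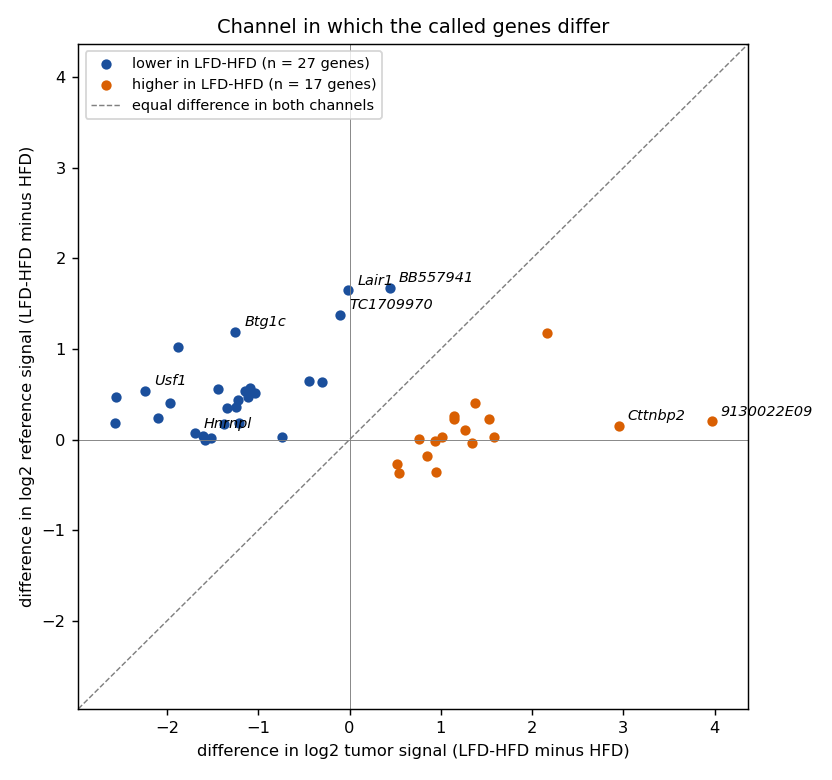
Difference between LFD-HFD and HFD tumors in log2 tumor signal (horizontal axis) and in log2 reference signal (vertical axis) for the 44 genes that passed, 1 point per gene, blue for lower and orange for higher in LFD-HFD. Lair1 sits at -0.01 on the tumor axis and 1.65 on the reference axis, while 9130022E09 and Cttnbp2 lie far to the right with reference differences of 0.20 and 0.15.

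The genes higher in LFD-HFD tumors were led by a locus on chromosome 6. Cttnbp2, which encodes a cortactin-binding protein, ran from 0.06 to 2.71 (median 2.66) in LFD-HFD and from -2.61 to 1.14 (median -1.07) in HFD, a difference of 2.79 (SE 0.63, limma adjusted p = 0.082). The groups overlapped in the LFD-HFD tumors MSU_101L4A and 82L and the HFD tumor 60L. The probe named 9130022E09, which has no symbol in the gene table and is given here because it had the largest difference of all genes that passed, lies 63.1 kb away (chr6:18379728-18379787, against chr6:18316612-18316671 for Cttnbp2). It ran from 1.37 to 4.06 (median 3.43) in LFD-HFD and from -2.59 to 0.57 (median -0.55) in HFD, with no overlap and a difference of 3.76 (SE 0.75, limma adjusted p = 0.047).

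Because of these calls, the genes upstream on the chromosome were read as well, a choice made after seeing the values. Between the probes of Tes and 9130022E09 there were 9 genes tested, and all 9 had differences above 0 (median 1.42), of which only Cttnbp2 and 9130022E09 passed. St7 had a difference of 2.15 (SE 0.68, unadjusted p = 0.0037, limma adjusted p = 0.25). Met, the receptor of hepatocyte growth factor, had a difference of 0.90 (SE 1.12) that did not pass, Tes one of 1.42, Cav2 one of 1.61 and Capza2 one of 1.1003. The 5 genes tested within 3 Mb on either side had a median difference of 0.30 and none passed at an unadjusted p under 0.05.

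The region differed from tumor to tumor. In the LFD-HFD tumors 71L, 80L, 82L and 92R the Met ratio was 5.48, 5.02, 5.72 and 6.03, and the St7 ratio was between 2.82 and 3.57. In 90R and MSU_101L4A Met was at 1.37 and 1.68, although 90R had a Cttnbp2 ratio of 2.70. In the HFD tumors 40R4A, 42L4B and 65R Met was at 5.98, 6.43 and 5.95, within or above the range of those 4 LFD-HFD tumors, but their Cttnbp2 ratios were -2.61, -0.24 and -1.77. High Met was thus seen in both regimens, and high Cttnbp2 together with high Met in 71L, 80L and 92R of these 14 tumors. The combination was not limited to LFD-HFD tumors. HFD-LFD tumor MSU_107R had a Met ratio of 6.14, with St7 at 3.22, Cttnbp2 at 1.77 and 9130022E09 at 2.78, and HFD-LFD tumor MSU_122Rb had Met at 4.77, Cttnbp2 at 1.09 and 9130022E09 at 2.92 with St7 at 0.23.

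**Figure D3:**
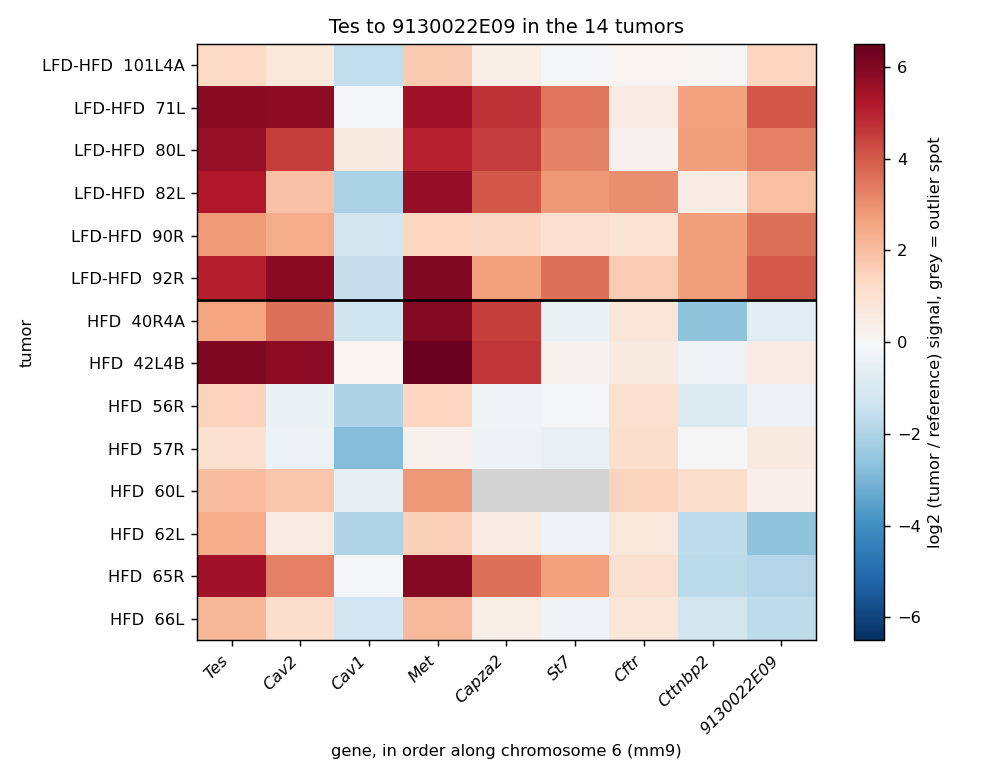
Log2 ratio of tumor to reference signal (color scale) of the 9 genes tested between Tes and 9130022E09, in their order along chromosome 6, in the 6 LFD-HFD and 8 HFD tumors, grey where the spot was an outlier. Met lies between 5.02 and 6.43 in 4 LFD-HFD and 3 HFD tumors, and St7, Cttnbp2 and 9130022E09 are high together in 71L, 80L and 92R.

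The remaining higher genes had smaller differences, between 0.75 and 1.54, and several are best known from tissues other than the mammary gland. Cps1, the first enzyme of the urea cycle, had very low ratios, from -6.18 to -4.95 in LFD-HFD and from -8.39 to -5.74 in HFD, with a difference of 1.54. Prss34, a serine protease gene, ran from -1.65 to -1.25 (median -1.44) in LFD-HFD and from -3.27 to -1.90 (median -2.74) in HFD. The groups did not overlap, and the difference was 1.15 (SE 0.24, limma adjusted p = 0.054). Mip, the water channel of the lens, falls outside the brightness rule and was named after its values had been seen. It was well above background on 6 of 6 LFD-HFD and 2 of 8 HFD arrays. Slc22a13, an organic anion transporter, Tekt4, a filament protein of cilia and flagella, and Pkhd1, the fibrocystin gene of renal and biliary cilia, had differences of 0.97, 0.88 and 0.75. The probes of Prss34 and Tekt4 lie 177 kb apart. The 5 genes tested between them, Prss28, Tpsab1, Tpsb2, Tpsg1 and Cacna1h, had differences from -0.15 to 0.46, none of which passed. Cps1, Mip, Pkhd1 and Prss34 had differences of -0.33, -0.32, -0.12 and -0.06 after normexp and loess, so their direction depended on how the background was treated.

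Other higher genes belong to nucleotide and RNA metabolism. Itpa, which clears inosine triphosphate from the nucleotide pool, ran from -1.21 to -0.39 (median -0.87) in LFD-HFD and from -2.54 to -1.28 (median -1.79) in HFD with no overlap, a difference of 1.02 (SE 0.20, limma adjusted p = 0.040). Dis3, the catalytic ribonuclease of the RNA exosome, had a difference of 0.95 and Rmrp, the RNA of the RNase MRP particle, one of 0.91, both without overlap. Jade1, which like Brd1 encodes a scaffold of histone acetyltransferase complexes, ran from 1.31 to 2.43 (median 1.87) in LFD-HFD and from 0.57 to 1.16 (median 0.92) in HFD. Its difference was 0.98 (SE 0.21, limma adjusted p = 0.071), while a second Jade1 probe gave 0.24 (SE 0.28). Kbtbd2, an adaptor of a ubiquitin ligase that acts on the regulatory subunit of PI3 kinase, had a difference of 0.92. Among the 17 higher genes, 12 had groups that did not overlap, against 0.243% of all genes.

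**Figure D4:**
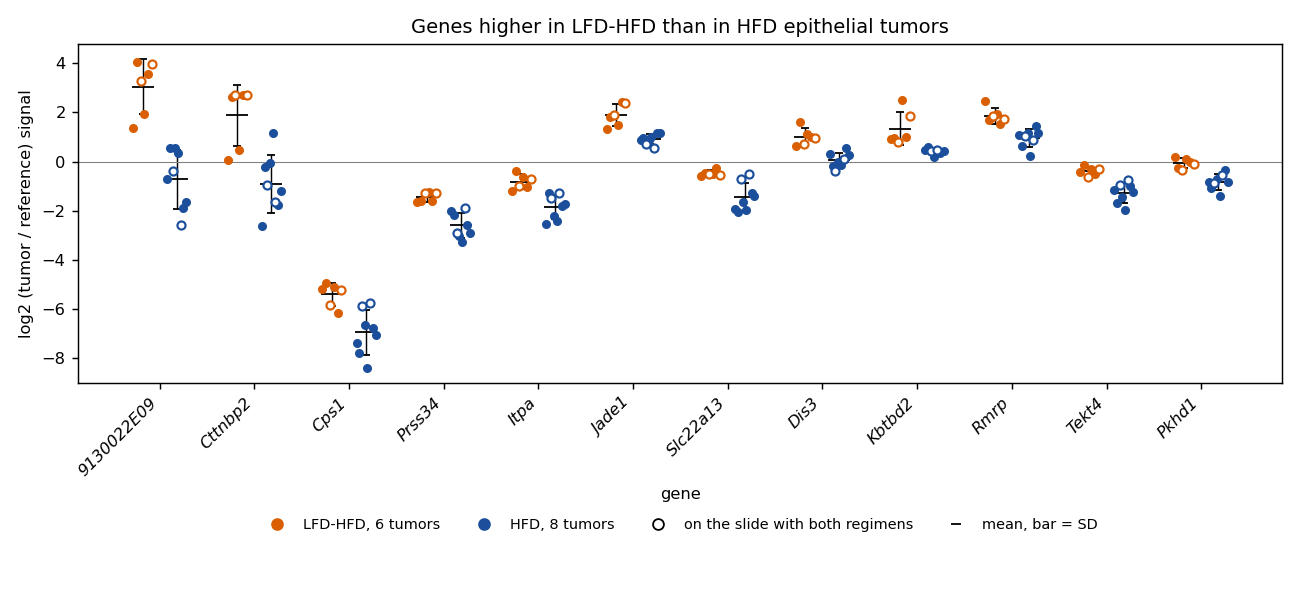
Log2 ratio of tumor to reference signal (vertical axis) of 9130022E09 and the 11 named genes higher in LFD-HFD, 1 point per tumor, with the mean and SD of each group as black bars and open points for the 4 tumors on the slide that held both regimens. In Cps1 and Slc22a13 the open HFD points lie at the top of their group, next to the LFD-HFD points.

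On the mixed slide, all 27 lower and all 17 higher genes kept the direction found over the 14 tumors, but the 4 tumors there took part in making the calls. Of the lower genes, 26 had at least 50% of their pooled difference within that slide, and their median was -1.79 on it and -1.63 on the other slides. Of the higher genes, 13 had at least 50%, and the medians were 0.82 and 1.13. Slc22a13 had 0.09 on the mixed slide against 0.97 pooled, and Cps1 0.28 against 1.54. Within the slide the differences were -2.88 for Pdia4, -2.35 for Hnrnpl, -2.12 for Usf1 and 4.01 for Cttnbp2.

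**Figure D5:**
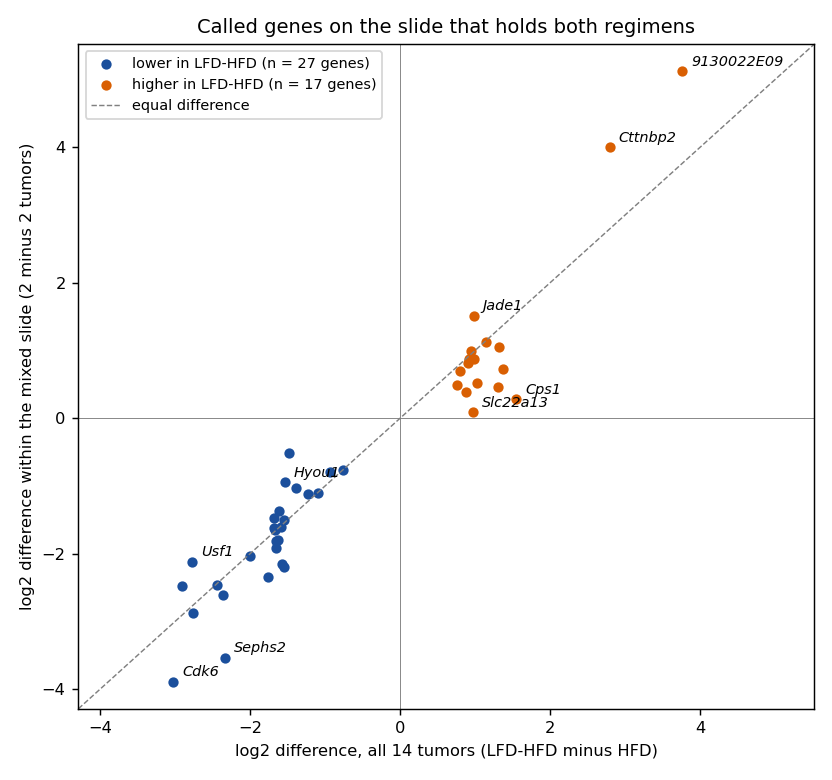
Log2 difference over all 14 tumors (horizontal axis) against that within the slide with both regimens (vertical axis, 2 LFD-HFD minus 2 HFD tumors) for the 44 genes that passed, 1 point per gene. All points lie in the lower left or upper right quadrant of the plot, with Slc22a13 (0.09) and Cps1 (0.28) nearest to 0 among the genes marked.

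Individual tumors departed from their group. LFD-HFD tumor MSU_101L4A lay on the HFD side of the midpoint between the group means for 19 of the 27 lower genes and for 2 of the 17 higher genes. HFD tumor 62L lay on the LFD-HFD side for 9 of the 17 higher genes and 2 of the lower ones. LFD-HFD tumors 71L and 92R were on their own side for every gene measured. For 20 of the 27 lower genes the highest HFD value was that of 42L4B or 60L. These are the tumors on the slide scanned on another day, whose arrays had the weakest reference channel. Without both of them 7 genes were higher and 15 lower, and the difference of Usf1 was -2.11 (limma adjusted p = 0.0755) and that of Hnrnpl -1.86 (limma adjusted p = 0.067).

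Tumors of the other regimens, LFD (8) and HFD-LFD (7), gave a further reading of the same genes, and lent only their spread to the fit. The mean of the LFD tumors lay between the LFD-HFD and HFD means for all 27 lower and 16 of 17 higher genes, and that of the HFD-LFD tumors for 26 and 15. The genes had been picked because the LFD-HFD and HFD means lay far apart, so these counts support nothing. Usf1, for example, averaged -0.07 ± 1.099 (SD, n = 8) in LFD and -0.14 ± 0.61 (SD, n = 7) in HFD-LFD tumors, and Cttnbp2 averaged -0.91 ± 1.04 and -0.21 ± 1.46. Across those 15 tumors the 27 lower genes varied together, with a median correlation of 0.40 between pairs of them against -0.0008 with all other genes tested. The median for the 17 higher genes was 0.17. These are descriptions over genes read on the same arrays.

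Trp53 itself was read in all tumors. Its ratios ran from -0.88 to 0.71 (median -0.20) in LFD-HFD and from 0.13 to 3.74 (median 0.78) in HFD, and the difference of -1.38 (SE 0.53, limma adjusted p = 0.34) did not pass. The highest values were those of HFD tumors 42L4B (2.99) and 60L (3.74), the arrays with the weakest reference channel, and without both the difference was -0.69. Whether the probe lies in the deleted part of the gene is not given in the sources used here, so these values do not check the genotype. Of 23 measured genes of Trp53 and its targets none passed, and their median difference was -0.17. Trp73, a relative of Trp53, had a difference of -0.89 that did not pass.

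None of the 43 gene lists had a member that passed, at a background of 0.206% of genes called. The lists are therefore described by their median difference beside the median of 0.01 over all genes. The 5 lowest medians were those of the collagen, MHC class II, T and cytotoxic lymphocyte, B and plasma cell and macrophage lists. For 21 collagen genes the median was -0.73, 16 were below 0 and 7 had an unadjusted p under 0.05, all 7 of them below 0. Their differences ran from -1.21 to 1.68, so the largest in size was above 0. Col1a2, a chain of type I collagen, ran from -4.67 to -2.04 (median -3.18) in LFD-HFD and from -2.94 to -0.675 (median -1.99) in HFD, a difference of -1.21 (SE 0.43). The collagen median was 0.21 among the early tumors, -1.16 among the late tumors and -0.20 on the mixed slide. The matrix protease list had a median of -0.33, with 0.29 in early and -1.02 in late tumors. Fibroblast and mesenchymal genes had a median of -0.24, with 18 of 24 below 0. Their median was 0.36 in early and -0.74 in late tumors. Thy1, a surface marker of fibroblasts and T cells, was at -0.83 (SE 0.25). Twist1, the highest of the list, was at 0.98 (SE 0.39), and neither passed.

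For 20 macrophage genes the median was -0.50, with 17 below 0 and 5 at an unadjusted p under 0.05. It was -0.79 on the mixed slide, -0.20 in early and -0.83 in late tumors. Lyz2, the lysozyme of macrophages and neutrophils, ran from 0.37 to 0.79 (median 0.51) in LFD-HFD and from 1.21 to 2.55 (median 1.59) in HFD. The groups did not overlap, yet the difference of -1.20 (SE 0.35, limma adjusted p = 0.22) did not pass. Fcer1g, a signaling subunit of Fc receptors, had a difference of -0.88. The summed tumor signal of the macrophage markers Adgre1, Csf1r and Cd68, on a log2 scale, ran from 14.3 to 15.4 in LFD-HFD and from 15.01 to 16.9 in HFD, and none of the 3 passed. MHC class II genes had a median of -0.61 with 8 of 9 below 0, T and cytotoxic lymphocyte genes one of -0.57 with 18 of 20 below 0, and B and plasma cell genes one of -0.51 with 9 of 10 below 0. On the mixed slide those 3 medians were 0.06, 0.20 and 0.28, above 0 where that of the macrophage list was below it. The 1 MHC class II gene above 0 was Ciita at 0.86, and the lowest was H2-Ob at -1.07. Neither passed. Cxcr3, a chemokine receptor of T cells, had a difference of -1.16 and Cxcl14, a chemokine, one of -1.001.

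Among epithelial lists the medians were -0.43 for squamous differentiation genes, -0.20 for luminal, -0.10 for basal and myoepithelial and -0.09 for junction genes, and hormone receptor genes and cofactors had one of -0.40. On the mixed slide the medians were -1.33 for the squamous, 0.21 for the luminal, -1.003 for the basal and myoepithelial, -0.05 for the junction and 0.08 for the hormone receptor list. Dsg3, a desmosomal cadherin of stratified epithelium, ran from -0.49 to 1.35 in LFD-HFD and from 1.31 to 3.001 in HFD, a difference of -1.68 (SE 0.54, limma adjusted p = 0.26). Krt6a differed by -1.79 and the cross-linking enzyme Tgm1 by -1.34, neither of which passed. The keratin gene Krt1 went the other way, with a difference of 0.56 (SE 0.22) that did not pass either. The median of the squamous list was -0.02 in early and -0.97 in late tumors. Elf5, a factor of luminal progenitor cells, had a difference of 0.93, and Esr1, the estrogen receptor, one of -1.60 with ratios from -2.60 to 1.84 in LFD-HFD and from 0.48 to 4.90 in HFD. Neither passed. The lowest Esr1 value was that of 82L alone, the next being 0.30, and a second Esr1 probe gave -0.38 (SE 0.60).

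Lists of metabolism had medians near that of all genes, with a few members well away from it. The 30 cholesterol and fatty acid synthesis genes had a median of -0.07. Insig1, which holds back the activation of sterol synthesis genes, ran from -3.50 to -0.90 (median -2.22) in LFD-HFD and from -1.61 to -0.18 (median -1.18) in HFD, and its difference of -1.22 (SE 0.36, limma adjusted p = 0.23) did not pass. The 28 genes of fatty acid uptake and oxidation had a median of -0.01, and Ucp3, a mitochondrial carrier of muscle and fat, had values from -0.59 to 0.37 in LFD-HFD and from 0.50 to 1.30 in HFD. These did not overlap, and the difference of -1.05 (SE 0.28, limma adjusted p = 0.19) did not pass. Adipocyte genes had a median of 0.15, and their 4 measured markers had a summed log2 tumor signal from 12.8 to 15.2 in LFD-HFD and from 11.9 to 15.7 in HFD. Insulin and IGF pathway genes had a median of 0.10, with Foxo3, a factor that insulin signaling keeps out of the nucleus, at 0.97 (SE 0.32) and a second Foxo3 probe at 0.18 (SE 0.22). Respiratory chain genes had a median of 0.10 and glycolysis and hypoxia genes one of 0.04.

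The highest list median was that of angiogenic factors, 0.37 over 20 genes, with Pgf, placental growth factor, at 1.07 (SE 0.43) and Vegfa at 0.70 (SE 0.35), neither of which passed. Of the 20 genes 12 were above 0 and 8 below, the lowest being Thbs2 at -1.004 (SE 0.50), which did not pass. The list median was 0.05 on the mixed slide, 0.64 in early and -0.09 in late tumors. Cell division genes had a median of 0.12 with 23 of 32 above 0, Ccnb2 being at 0.44. Their median was -0.26 on the mixed slide, -0.09 in early and 0.37 in late tumors. Less bright probes of Ccnb1 (-0.56 and -0.70), Birc5 (-0.08 and -0.04) and Cdc6 (-0.21) were below 0. The brightest probes of these genes were at 0.44, 0.38 and 0.54. Skeletal muscle genes, which mark muscle taken along with the gland, had a median of 0.12 and were at strongly negative ratios in both groups, Myl1 from -7.38 to -5.51 in LFD-HFD and from -7.70 to -6.26 in HFD. Ribosomal protein genes had a median of -0.01 with all 28 differences between -0.38 and 0.30.

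Early and late tumors were set apart to ask whether the difference between the regimens depended on the time of occurrence. The interaction of regimen and onset passed for no gene (limma, adjusted p under 0.10, 0% of 21366), with a smallest adjusted p of 0.61 and 1185 genes at an unadjusted p under 0.05. After normexp and loess 1 gene passed. The early and late medians were -2.13 and -1.19 for the lower and 1.25 and 0.82 for the higher genes. All 44 genes had the same direction in both, but they had been called from these same tumors, so the shared direction supports nothing. Usf1 differed by -4.13 in early and by -1.42 in late tumors, and 42L4B and 60L are 2 of the 4 early HFD tumors. With the early tumors alone 18 genes were higher and 39 lower, and with the late tumors alone 0 genes passed while 1514 had an unadjusted p under 0.05. For 3 HFD tumors, 40R4A, 57R and 65R, the column of the authors' matrix matched the scanner values of another of the 3, so which of them were early is uncertain, while their regimen is not touched.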

How the data were processed

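Tumor RNA was measured in 41 samples, of which the 29 epithelial ones entered the fits. Per the labels and file headers, the scanner files hold signal intensities that Agilent Feature Extraction (11.0.1.1 in the headers, 8.5.1.1 in the labels) had background-corrected, spatially detrended and dye-normalized. The deposited matrix holds log2 ratios, which the authors Lowess-normalized and imputed. It was used only as an alternative. Probe positions are those of build mm9 in the headers. Log2 of red (Cy5) over green (Cy3) processed signal was taken, outlier spots were set to missing, spots of a probe were averaged, and probes with both signals over 10 on at least 80% of 29 arrays were kept. The brightest of a gene's probes stood for it. Of 39429 probes, 31375 matched a symbol in the RefSeq gene table. The 4 regimens were fitted with limma 3.58.1 in R 4.3.3, with Benjamini-Hochberg adjustment over all genes and a threshold of 0.10, LFD and HFD-LFD tumors lending their spread only. The interaction fit had 8 groups. Named genes were up to 15 per direction that passed, had a symbol and were well above background on at least 4 of 6 LFD-HFD and 5 of 8 HFD arrays, and up to 4 of smallest p in each of 43 lists. Members and lists were chosen with earlier results of these data known. The fits were tested on simulated data drawn independently for each tumor. These held no slide effect, so that test says nothing about slide. The number of arrays limits the precision. Alternatives were other background correction and scaling, filters, probe rules, the matrix, slide and onset terms, array weights, and omitted tumors. Spindle tumors were not analysed here.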

Additional observations from a re-analysis of the deposited data

Results flagged for a closer look

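In 20 of 262 groups of values examined, the lowest or highest tumor lay further from the others than Dixon's criterion allows, and chance flags about 1 in 20 groups. LFD-HFD tumor MSU_101L4A accounted for 6 of them, with log2 ratios of -1.07 for Ap2a2, 4.89 for Elf5, 0.99 for Erbb3, -1.12 for Igfbp6, -1.19 for Myl9 and 0.91 for Trp73, each the highest of the LFD-HFD tumors. Among the other LFD-HFD tumors, 90R was lowest for Aldoa (-2.45) and Tgm1 (-2.43), 82L was lowest for Esr1 (-2.60) and 80L was highest for Slc4a1 (-3.45). Among the HFD tumors, 60L was highest for Brd1 (3.28) and Dhx37 (2.74), and its array had the highest share of outlier spots (22.02%). HFD tumor 42L4B was highest for Pdia4 (4.07) and lowest for Gbp5 (0.0082), 57R was lowest for Birc5 (-0.97) and Tjp1 (-0.24), 62L was highest for Elane (-1.30) and Eno1 (1.58), and 65R was highest for St7 (2.67).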

How the results depend on the processing

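Against 17 higher and 27 lower genes, the alternatives gave 23 and 83 after normexp and loess, 14 and 51 with loess and no background correction, 8 and 29 in the authors' matrix, 1 and 14 with the 14 tumors alone, 195 and 232 with array weights, 0 and 0 with slide as a random or as a fixed block, 0 and 0 in the late tumors, 7 and 15 without HFD tumors 42L4B and 60L, and 3 and 11 at an adjusted p under 0.05. Leaving out each tumor in turn gave 0 to 61 higher and 0 to 37 lower genes. Both counts were 0 without LFD-HFD tumor 71L, 82L or 92R, with 1785, 1946 and 1798 genes at an unadjusted p under 0.05, and were 1 and 6 without 80L, 61 and 37 without HFD tumor 62L and 6 and 17 without 66L. The counts were 10 and 26 without LFD-HFD tumor 90R, 9 and 18 without HFD tumor 40R4A and 10 and 22 without 60L. The tumor channel alone, chosen after seeing the data, gave 481 and 94. After normexp and loess 39 of the 44 genes kept their direction. The genes with a symbol whose difference reversed there were Cps1 (-0.33), Mip (-0.32), Pkhd1 (-0.12) and Prss34 (-0.0599). The difference of BB557941 (0.40) reversed in the tumor channel alone. The interaction of regimen and onset passed for 1 gene after normexp and loess and for 0 in the other alternatives run. The cause was not tested. Fewer tumors enter the fits that leave some out. No paired analysis was made, because the 14 tumors came from different mice and the labels pair none of them across the regimens.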
